A study of Mus musculus with 8 samples.

Results

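Ccl2, Ccl7, Ccl12, Cx3cl1 and Csf1 are among the genes of a cytokine and chemokine PCR array whose products draw monocytes into tissue or keep monocytes and macrophages alive. They were picked by gene symbol, from what their products do and not from their values, though earlier results of these data were known. They make up 5 of the 84 array genes. Each was read in bulk liver of mice that differed in genotype, diet and injury. Rag1-KO mice (Rag1-/-) lack T and B cells. Rag1-Tbet-DKO mice, bred by crossing Rag1-/- with Tbx21-/- mice, have in addition no T-bet, a transcription factor that type 1 innate lymphoid cells (ILC1s) need. Loss of Rag1 was thus shared by every group, controls included, and wild-type mice are not analysed here. Mice of 17 to 19 weeks had been kept on a normal chow diet (ND) or on a lard-based high-fat diet (HFD) for 12 to 15 weeks. The livers labelled IRI came from mice that had 45 minutes of warm ischemia of part of the liver, with reperfusion for 24 hours, and the livers labelled non-IRI did not. RNA of at least 3 livers was pooled for each of the 8 conditions, and each gene has a value from 1 well of that pool.

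CCL2, CCL7 and, in mice, CCL12 are CC chemokines that bind the receptor CCR2, through which inflammatory monocytes leave the bone marrow and enter an injured liver. CX3CL1 (fractalkine) is made as a membrane-bound protein that can be shed, and its receptor CX3CR1 is carried by monocytes and by some NK cells. CSF1 is the growth factor on which monocytes, Kupffer cells (the resident macrophages of the liver) and other macrophages depend through the receptor CSF1R. Tumour necrosis factor and interleukin 1 are well known to induce the CCR2 ligands in hepatocytes, endothelial cells, stellate cells and macrophages. The receptor genes Ccr2, Cx3cr1 and Csf1r, and the monocyte and macrophage markers Ly6c2, Adgre1, Cd68 and Itgam, are not on the array, so no value of it counts these cells. In bulk liver, fewer cells of a type and less RNA per cell cannot be told apart.

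Ccl2, Ccl7 and Ccl12 lie in a CC chemokine cluster on mouse chromosome 11, in the order Ccl2, Ccl7, Ccl11, Ccl12, Ccl8, Ccl1 among the protein-coding genes of the RefSeq table of assembly GRCm38.p6. Cx3cl1 lies on chromosome 8 and Csf1 on chromosome 3. The RefSeq promoter table of that assembly held 3 of the 5 genes, Ccl12, Cx3cl1 and Csf1. Their 250 bases before the annotated start site are shown, and Ccl2 and Ccl7 are missing for want of an entry. Capitals mark matches, on either strand, to TATAAA, to TGANTCA (the AP-1 element) or to the NF-kB consensus, and no matches overlap.
Ccl12 (chr11:82101595-82101844, plus strand): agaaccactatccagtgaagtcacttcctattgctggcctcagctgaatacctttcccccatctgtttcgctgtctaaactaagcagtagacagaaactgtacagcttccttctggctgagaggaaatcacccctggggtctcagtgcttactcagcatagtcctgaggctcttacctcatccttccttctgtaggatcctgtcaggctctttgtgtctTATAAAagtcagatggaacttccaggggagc
Cx3cl1 (chr8:94771930-94772179, plus strand): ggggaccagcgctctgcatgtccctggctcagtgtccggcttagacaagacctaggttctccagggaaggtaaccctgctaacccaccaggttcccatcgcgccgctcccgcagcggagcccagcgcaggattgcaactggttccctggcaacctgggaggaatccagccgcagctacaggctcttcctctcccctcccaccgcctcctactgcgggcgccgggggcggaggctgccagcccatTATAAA
Csf1 (chr3:107760470-107760719, minus strand): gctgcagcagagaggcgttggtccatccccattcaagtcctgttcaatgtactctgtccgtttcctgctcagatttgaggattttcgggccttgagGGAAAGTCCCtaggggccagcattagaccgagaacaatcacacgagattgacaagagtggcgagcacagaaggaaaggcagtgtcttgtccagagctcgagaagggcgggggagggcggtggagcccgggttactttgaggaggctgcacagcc
TATAAA was found in the Ccl12 promoter, where it begins 31 bases before the start, and in the Cx3cl1 promoter, where it begins 6 bases before the start. The Csf1 promoter held 1 NF-kB match, which reads GGGACTTTCC on the opposite strand and whose far end lies 154 bases before the start. TGANTCA was in none of the 3. Of all 32851 promoters in the table, cut to the same length, 12.4% held TATAAA, 3.90% the NF-kB consensus and 6.75% TGANTCA. A match to these letters is a description of the sequence and not a measured site.

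The array reports a threshold cycle (Ct), the PCR cycle at which the product is detected, so that each cycle less stands for a level about 2-fold higher. Levels here are the negative ΔCt against the mean Ct of Actb and Hsp90ab1, a log2 scale, and a log2 fold is the difference of that level between pools. Levels of different genes cannot be set against each other, since each assay has its own efficiency. A Ct of 35, the highest in the table, was taken as the detection limit, which 79 of 712 wells and 1 of the 40 wells of the 5 genes reached. The pools differed as a whole. The number of array genes at that limit ran from 6 to 17, and the median Ct of the 62 genes that no pool had at the limit (called the array median below) ran from 23.93 in HFD Rag1-KO non-IRI liver to 26.21 in ND Rag1-KO non-IRI liver. The largest log2 fold of a housekeeping gene not used as reference (Gapdh, Gusb or B2m) in any of the 12 comparisons was 1.13, and Actb and Hsp90ab1 moved against each other by up to 0.50. Rag1 and Tbx21 are not on the array, so the genotypes could not be checked in these files. The hepatocyte-expressed genes Hc, Thpo and Gpi1 were detected in all 8 pools, with a summed level (log2) between -0.80 and 0.49 without IRI and between 0.01 and 0.29 after IRI.

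The 5 genes fell into a wide-ranging and a narrow-ranging set. The level of Ccl7 spanned 85.6-fold over the 8 pools, a log2 range of 6.42 and rank 2 among these 62 genes, whose median log2 range was 2.86. Ccl12 spanned 94.7-fold over the 7 pools in which it was below the limit, and Ccl2 spanned 15.3-fold (rank 14 of 62). Cx3cl1 and Csf1 spanned 2.12-fold and 2.59-fold, ranks 57 and 51 of 62. The HFD Rag1-Tbet-DKO IRI pool had the highest level of Ccl2, Ccl7, Ccl12 and Csf1. It stood above the next pool by a log2 difference of 1.65 for Ccl2, 1.80 for Ccl7 and 2.19 for Ccl12, each beyond the largest housekeeping shift, but by only 0.16 for Csf1, which is within it. In the order of their levels, no neighbouring pools of Cx3cl1 or Csf1 differed by more than 0.41 (log2), so their order is not resolved at 1 well per pool.

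**Figure D1:**
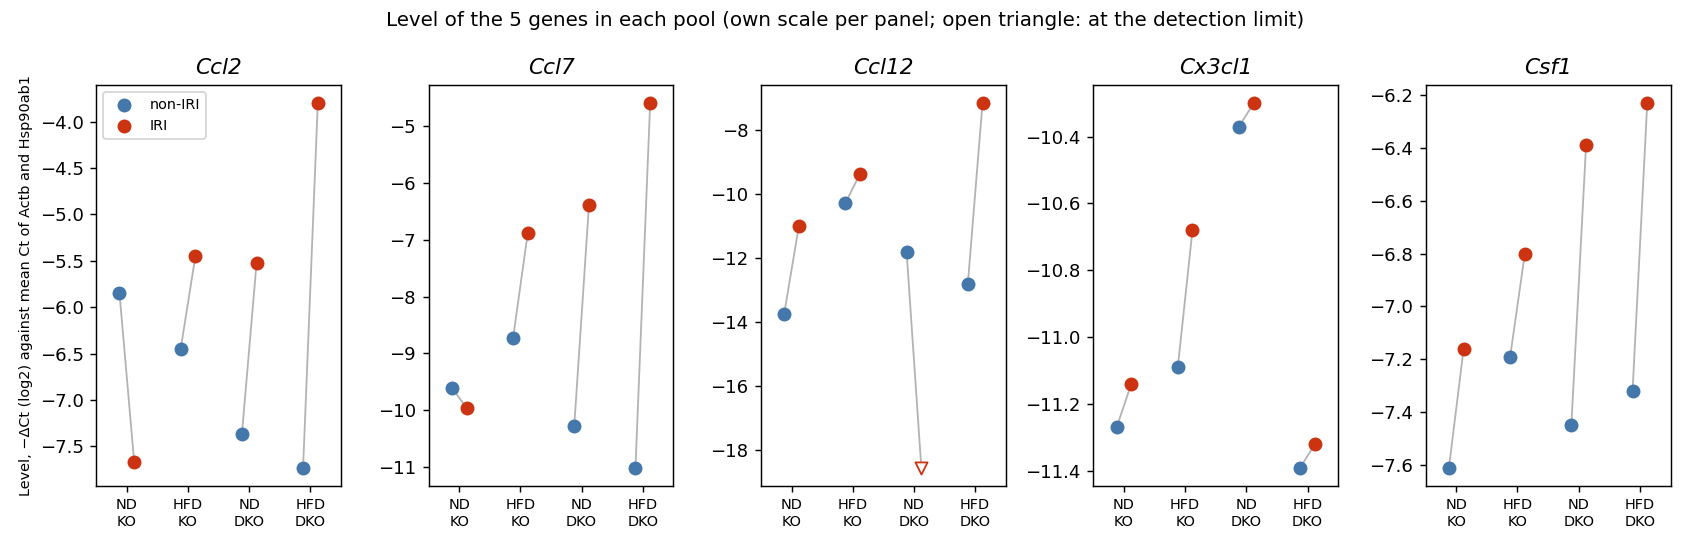
Level of each gene in each pool (negative ΔCt, log2, against the mean Ct of Actb and Hsp90ab1; KO is Rag1-KO and DKO is Rag1-Tbet-DKO), with a panel and a scale of its own for each gene and a line from the non-IRI to the IRI pool of the same diet and genotype. Ccl2, Ccl7, Ccl12 and Csf1 are highest in HFD DKO IRI liver, and the open triangle marks the Ccl12 well at the limit, where only an upper bound is known.

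The comparison of IRI with non-IRI liver asks how the genes of monocyte recruitment stand 24 hours after ischemia. All 3 CCR2 ligands were far higher after IRI in HFD Rag1-Tbet-DKO liver, by 15.3-fold for Ccl2, 85.6-fold for Ccl7 and 49.5-fold for Ccl12. In no other pair were all 3 at least 2-fold higher, and in ND Rag1-KO liver Ccl2 was 3.53-fold lower after IRI. Csf1 was about 2-fold higher after IRI in both Rag1-Tbet-DKO pairs, close to the median of the measured array genes there. Cx3cl1 differed by at most 1.32-fold in every pair. Since each comparison holds 1 pool against 1 pool, no test of a single fold exists. According to the methods the whole liver was taken from control mice and the left lobe after IRI, and injury and that difference cannot be told apart.

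Ccl2, the main CCR2 ligand, had a Ct of 21.43 in ND Rag1-KO, 21.67 in HFD Rag1-KO, 22.41 in ND Rag1-Tbet-DKO and 23.24 in HFD Rag1-Tbet-DKO liver without IRI. After IRI the Ct values in the same order were 23.48, 21.35, 21.98 and 19.46. Relative to the references, the IRI pool was the lower of the pair in ND Rag1-KO liver and the higher in the other 3, so that the IRI and non-IRI pools overlapped. The log2 fold was -1.82, 1.01, 1.85 and 3.94 in that order. Among the genes measured in both pools, Ccl2 ranked last of 68 in ND Rag1-KO, 8 of 75 in HFD Rag1-KO, 23 of 74 in ND Rag1-Tbet-DKO and 6 of 67 in HFD Rag1-Tbet-DKO liver. These ranks do not depend on the reference genes, which add 1 constant to every gene of a comparison.

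Ccl7, which also binds CCR1 and CCR3, had Ct values of 25.18, 23.95, 25.31 and 26.51 without IRI and 25.77, 22.78, 22.85 and 20.25 after IRI, in the same order of diet and genotype. Its 3 highest levels were all IRI pools, and the ND Rag1-KO IRI pool lay among the non-IRI pools. The log2 fold after IRI was -0.36 (rank 62 of 68), 1.86 (rank 4 of 75), 3.88 (rank 6 of 74) and 6.42 (rank 2 of 67). The Rag1-Tbet-DKO folds were 14.7-fold and 85.6-fold, against 1.28-fold lower and 3.62-fold higher in Rag1-KO liver.

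Ccl12 had Ct values of 29.31, 25.50, 26.86 and 28.30 without IRI and 26.80, 25.26, 35 and 22.83 after IRI, in the same order. It was higher after IRI in the 3 pairs in which both pools were below the limit, with log2 folds of 2.74 (rank 2 of 68), 0.93 (rank 10 of 75) and, in HFD Rag1-Tbet-DKO liver, 5.63 (rank 3 of 67). The ND Rag1-Tbet-DKO IRI pool went the other way. There Ccl12 was at the limit and at least 105-fold lower than without IRI, while Ccl2 and Ccl7 of the same cluster were 3.61-fold and 14.7-fold higher. The Ccl7 call was kept under all 9 other settings, and the Ccl2 call was lost under 3 of them, at 1.35-fold to 1.48-fold. With the limit set at a Ct of 32, the Ccl12 bound is at least 13.2-fold lower. This value rests on 1 well without a repeat, and whether it reads the liver or a failed reaction was not tested.

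Csf1 had Ct values between 22.41 and 23.19 without IRI and of 22.97, 22.71, 22.85 and 21.90 after IRI. Relative to the references its level was higher after IRI in all 4 pairs, at log2 folds of 0.45, 0.39, 1.06 and 1.08, and the lowest IRI level (-7.16) lay just above the highest non-IRI level (-7.19). The folds in Rag1-KO liver were within the shifts of Gapdh, Gusb and B2m in the same pairs, and those in Rag1-Tbet-DKO liver were beyond them. Among the measured genes, Csf1 ranked 37 of 74 in ND and 32 of 67 in HFD Rag1-Tbet-DKO liver, near the middle of the array. Cx3cl1 had Ct values of 26.85, 26.31, 25.41 and 26.89 without IRI and of 26.95, 26.59, 26.76 and 26.98 after IRI. Its log2 folds were 0.13, 0.41, 0.07 and 0.07, all above 0 and each smaller than the largest shift of Gapdh, Gusb or B2m in the same pair. Of the 62 genes, 25.8% were above 0 in all 4 pairs with these references, so being among them does not set Csf1 or Cx3cl1 apart. With the array median as reference, which takes out what most genes share, the log2 folds of Csf1 were -0.81, 0.60, 0.54 and -0.23, and those of Cx3cl1 were -1.13, 0.62, -0.45 and -1.24, so that neither kept 1 direction. With Nodal, Il9 and Csf1 as references the ND Rag1-Tbet-DKO value of Csf1 was -0.29, in a setting where Csf1 is part of its own reference.

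At a threshold of 2-fold, 10 of the 20 member values (5 genes in 4 pairs) were higher after IRI and 2 were lower. In ND Rag1-KO liver 1 of the 5 genes was higher (Ccl12), against 50.7% of all array genes with a fold, and 1 was lower (Ccl2), against 5.33%. In HFD Rag1-KO liver 2 were higher (Ccl2 and Ccl7), against 10.4%, and 0 were lower, against 15.6%. In ND Rag1-Tbet-DKO liver 3 were higher (Ccl2, Ccl7 and Csf1), against 50.0%, and 1 was lower (Ccl12), against 11.2%. In HFD Rag1-Tbet-DKO liver 4 were higher, against 55.8%, and 0 lower, against 5.19%. The median log2 fold of the 5 genes was 0.13, 0.93, 1.06 and 3.94 in this order, beside 0.97, -0.16, 1.05 and 0.94 over the measured array genes. The median of the 5 genes was above that of the array in the HFD pairs, below it in ND Rag1-KO liver and level with it in ND Rag1-Tbet-DKO liver. The Ccl2 call in HFD Rag1-KO liver lay at the threshold (2.01-fold) and was lost with 5 of 9 other settings, among them Actb, Hsp90ab1 and Gapdh together.

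**Figure D2:**
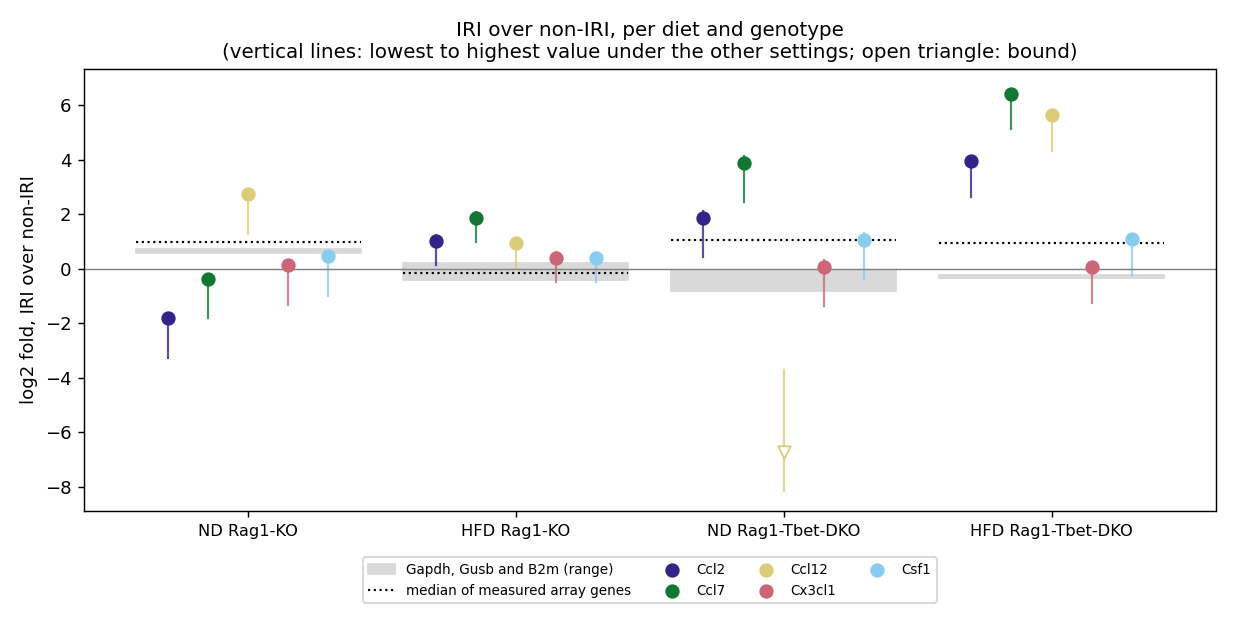
Log2 fold of IRI over non-IRI liver for the 5 genes in each pair of pools, with the lowest to highest value under the other settings as a vertical line, the range of Gapdh, Gusb and B2m in grey and the median of the measured array genes as a dotted line. Ccl2 and Ccl7 go from below 0 in ND Rag1-KO to 3.94 and 6.42 in HFD Rag1-Tbet-DKO liver, and the open triangle is a bound for Ccl12.

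The 4 pairs were also averaged, which treats pairs of different diet and genotype as repeats of the injury. The mean log2 fold after IRI was 1.24 ± 2.39 (SD, n = 4 pairs) for Ccl2, 2.95 ± 2.89 for Ccl7, 3.10 ± 2.37 for Ccl12 (n = 3 pairs), 0.17 ± 0.16 for Cx3cl1 and 0.74 ± 0.38 for Csf1. By an exact two-sided sign-flip permutation test the p-values were 0.375, 0.25, 0.25, 0.125 and 0.125, where 4 pairs cannot go below 0.125 and 3 pairs cannot go below 0.25. By this test no member can pass a threshold of 0.05 with 4 pairs, and the lowest p adjusted by Benjamini-Hochberg over the 15 such tests was 0.536 (exact permutation). The pair left out for Ccl12 is ND Rag1-Tbet-DKO, which opposes the other 3, and with its bound counted the mean over 4 pairs is at most 0.64. For Ccl2 and Ccl7 the spread between pairs was about as large as the mean or larger.

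Ccl7 gained on Ccl2 in every pair. The Ct of Ccl7 minus the Ct of Ccl2 needs no reference gene and fell from 3.75 to 2.29 cycles in ND Rag1-KO, from 2.28 to 1.43 in HFD Rag1-KO, from 2.90 to 0.87 in ND Rag1-Tbet-DKO and from 3.27 to 0.79 in HFD Rag1-Tbet-DKO liver. The gap itself is no ratio of transcripts, but its change is a change of Ccl7 against Ccl2, by 1.46, 0.85, 2.03 and 2.48 on the log2 scale. In the same pairs the 5 housekeeping genes moved against each other by at most 0.77, 0.63, 0.98 and 0.38. Each change of Ccl7 against Ccl2 was larger than that, but the smallest, 0.85 (1.80-fold), is within the 1.21 that housekeeping genes reached in another comparison. The mean change was 1.71 ± 0.71 (SD, n = 4 pairs). With all 4 changes of the same sign, an exact two-sided sign-flip permutation test can only return p = 0.125, whatever their size. Of the other 61 of the 62 genes, 1 was higher against Ccl2 after IRI in all 4 pairs, and that gene was Ccl7 (1.64%). In ND Rag1-KO liver Ccl2 had the lowest fold of the 68 measured genes, so every other gene rose against it there. Ccl7 did so with a log2 fold of -0.36 of its own. The pattern was noticed in these values, so neither the p-value nor this share is support for it.

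**Figure D3:**
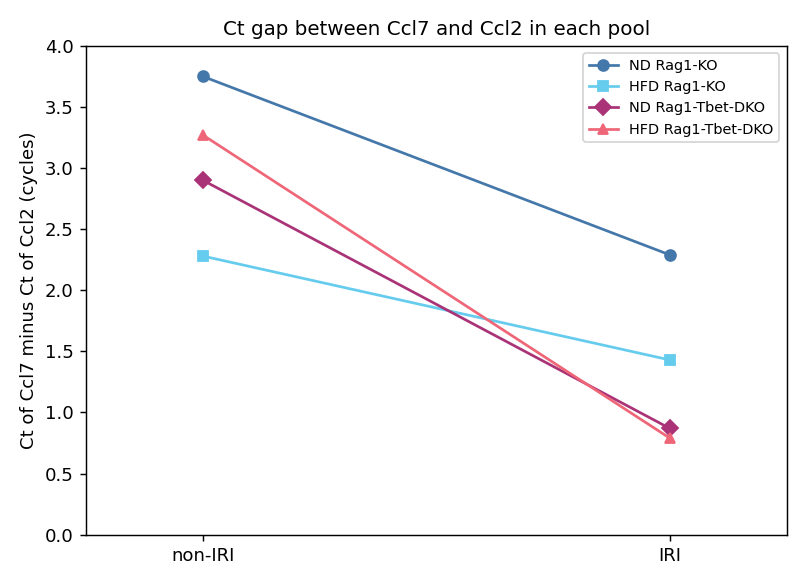
Ct of Ccl7 minus Ct of Ccl2, in cycles, in the non-IRI and IRI pool of each diet and genotype, joined by a line. All 4 lines go down, to 2.29 and 1.43 cycles in Rag1-KO and to 0.87 and 0.79 cycles in Rag1-Tbet-DKO liver.

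The comparison of HFD with ND liver asks how the same genes stand in fatty liver. After IRI, all 3 CCR2 ligands were higher on HFD in both genotypes. Ccl2 was 4.68-fold higher in Rag1-KO and 3.31-fold higher in Rag1-Tbet-DKO IRI liver, and Ccl7 was 8.49-fold and 3.49-fold higher. In Rag1-KO IRI liver, Ccl7 and Ccl2 ranked 1 and 2 of 72 measured genes, and in Rag1-Tbet-DKO IRI liver they ranked 2 and 3 of 73. Ccl12 was 3.11-fold higher in Rag1-KO and at least 2656-fold higher in Rag1-Tbet-DKO IRI liver, where the bound comes from the ND well at the limit and is at least 333-fold with a limit of 32. Without IRI the CCR2 ligands did not share this direction. There the log2 folds on HFD were -0.60 (Ccl2), 0.87 (Ccl7) and 3.45 (Ccl12) in Rag1-KO and -0.36, -0.74 and -0.98 in Rag1-Tbet-DKO liver.

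Ccl2 was the single gene of the 62 (1.61%) that was below 0 on HFD in both non-IRI comparisons and above 0 in both IRI comparisons, although its non-IRI values were under 2-fold. The pattern held with 7 of 8 sets of references (raw Ct counted among them) and not with the array median, with which Ccl2 in Rag1-Tbet-DKO non-IRI liver was 0.73 (log2) higher on HFD. Seen as the fold after IRI, that of Ccl2 was larger on HFD than on ND by 2.83 (log2) in Rag1-KO and by 2.09 in Rag1-Tbet-DKO liver, ranks 1 and 5 of the 62 genes, whose median difference was -1.10 and 0.28. For Ccl7 it was larger by 2.22 and 2.54, rank 2 in both genotypes. With 1 pool per condition these differences were not tested.

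Csf1 varied little with diet, at log2 folds on HFD of 0.42, 0.36, 0.13 and 0.16 in Rag1-KO non-IRI, Rag1-KO IRI, Rag1-Tbet-DKO non-IRI and Rag1-Tbet-DKO IRI liver. All 4 were above 0 with Actb and Hsp90ab1, as were those of 9.68% of the 62 genes, and at most 1.34-fold. The 0.42 is below the 0.64 to 1.13 by which Gapdh, Gusb and B2m were higher in the same comparison. Relative to the array median the Csf1 values ran from -1.50 to 1.23. Cx3cl1 was 1.13-fold and 1.37-fold higher on HFD in Rag1-KO liver without and after IRI, and 2.02-fold lower in Rag1-Tbet-DKO liver in both. Higher on HFD in both Rag1-KO comparisons and lower in both Rag1-Tbet-DKO comparisons was a common pattern, shown by 29.0% of the 62 genes. For Cx3cl1 it held with 4 of 8 sets of references, and the 2.02-fold values lie at the threshold.

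Over all diet comparisons, 7 of the 20 member values were at least 2-fold higher on HFD and 2 were lower. In Rag1-KO non-IRI liver 1 of 5 was higher, against 71.4% of array genes, and 0 lower, against 1.30%. This is the comparison in which the HFD pool had the lowest median Ct of all pools and in which Gapdh, Gusb and B2m were also higher by 0.64 to 1.13 (log2), and the Ccl12 value moved with the reference, from 3.45 to 2.93 with all 5 housekeeping genes and to 1.53 (2.89-fold) relative to the array median. In Rag1-KO IRI liver 3 of 5 were higher, against 28.6%, and 0 lower, against 11.7%, with Gapdh, Gusb and B2m between -0.14 and 0.15. In Rag1-Tbet-DKO non-IRI liver 0 were higher, against 6.33%, and 1 was lower (Cx3cl1), against 29.1%. In Rag1-Tbet-DKO IRI liver 3 were higher, against 8.75%, and 1 lower (Cx3cl1), against 22.5%. The 6 CCR2 ligand calls after IRI were kept under all 9 other settings. The Ccl12 call in Rag1-Tbet-DKO IRI liver rests on the ND well at the limit, which none of these settings leaves out. Over the 4 pairs, the mean log2 fold on HFD was 0.75 ± 1.44 (SD) for Ccl2, 1.26 ± 1.61 for Ccl7, 1.37 ± 2.22 for Ccl12 (n = 3 pairs), -0.35 ± 0.78 for Cx3cl1 and 0.27 ± 0.14 for Csf1, with exact two-sided sign-flip permutation p-values of 0.5, 0.25, 0.5, 0.5 and 0.125. The pair left out for Ccl12 is Rag1-Tbet-DKO IRI, and with its bound counted the mean over 4 pairs is at least 3.87.

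**Figure D4:**
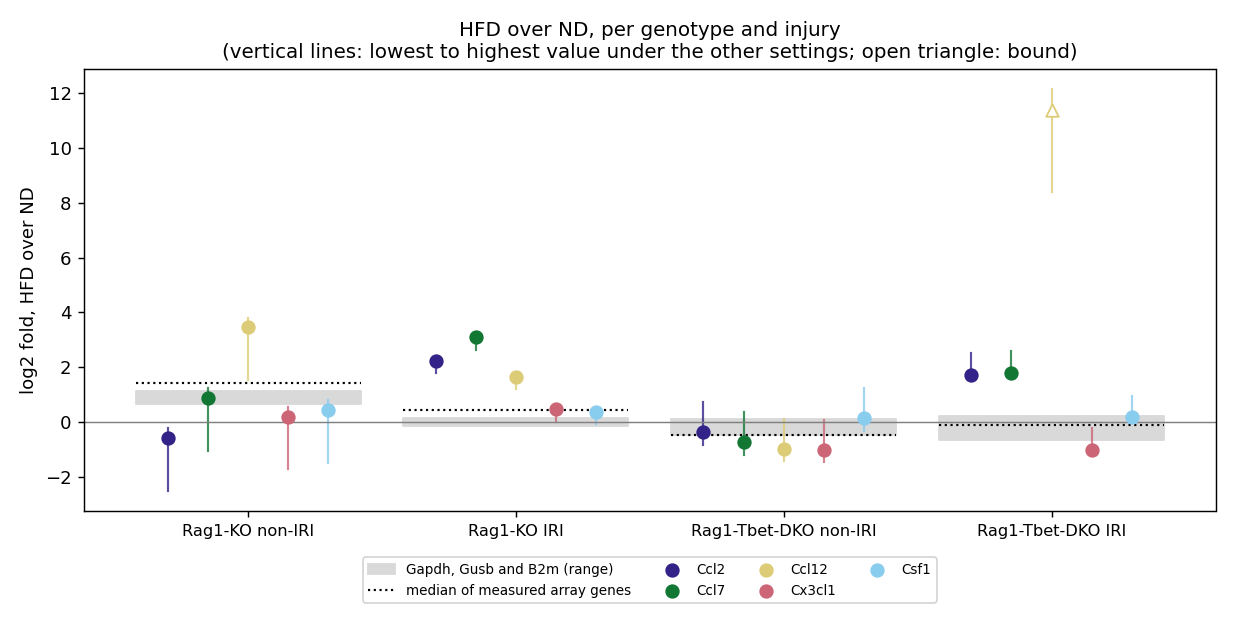
Log2 fold of HFD over ND liver for the 5 genes in each genotype and injury state, drawn as in the plot of IRI over non-IRI liver. After IRI, Ccl2, Ccl7 and Ccl12 lie above 1 in both genotypes while Cx3cl1 and Csf1 stay between -1.02 and 0.46, and the open triangle at 11.38 is a bound.

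The comparison of Rag1-Tbet-DKO with Rag1-KO liver asks what goes with the further loss of T-bet. For Ccl2 and Ccl7 the answer had opposite signs with and without injury. Without IRI Ccl2 was lower in Rag1-Tbet-DKO liver by 2.87-fold on ND and 2.44-fold on HFD, and Ccl7 by 1.59-fold and 4.84-fold. After IRI Ccl2 was higher in Rag1-Tbet-DKO liver by 4.44-fold on ND and 3.14-fold on HFD, and Ccl7 by 11.9-fold and 4.89-fold. These folds come from the same 8 pools as those of injury and diet and are another view of the same wells.

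Below 0 in both non-IRI comparisons and above 0 in both IRI comparisons were 8.06% of the 62 genes, namely Ccl2, Ccl7, Ccl3, Csf3 and Cxcl5. CCL3 attracts monocytes and other leukocytes, and CSF3 and CXCL5 act on neutrophils. For Ccl7 the pattern held with all 8 sets of references and for Ccl2 with 7 of 8, since relative to the array median Ccl2 in HFD non-IRI liver was 0.21 (log2) higher in Rag1-Tbet-DKO liver. The fold of Ccl7 after IRI was larger in Rag1-Tbet-DKO than in Rag1-KO liver by 4.24 (log2) on ND and by 4.57 on HFD, ranks 1 and 2 of the 62 genes, whose median differences were -0.62 and 0.91. For Ccl2 it was larger by 3.67 and 2.93, ranks 4 and 8. The difference was not tested, since no condition has a second pool.

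Ccl12 did not follow them on ND. It was 3.76-fold higher in Rag1-Tbet-DKO liver without IRI and at least 187-fold lower after IRI, the latter from the well at the limit (at least 23.4-fold with a limit of 32). On HFD it went with Ccl2 and Ccl7, at 5.72-fold lower without IRI and 4.56-fold higher after IRI. Csf1 differed by at most 1.71-fold between genotypes, at log2 folds of 0.16 (ND) and -0.12 (HFD) without IRI and 0.77 and 0.57 after IRI. Cx3cl1 was higher in Rag1-Tbet-DKO liver on ND, by 1.87-fold without and 1.79-fold after IRI, and lower on HFD, by 1.23-fold and 1.55-fold. That diet-dependent sign was shown by 16.1% of the 62 genes and for Cx3cl1 held with 7 of 8 sets of references, but all 4 values were under 2-fold.

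At 2-fold, 6 of the 20 member values were higher in Rag1-Tbet-DKO liver and 5 were lower. On ND without IRI 1 of 5 was higher (Ccl12), against 45.6% of array genes, and 1 lower (Ccl2), against 8.86%. There Gapdh, Gusb and B2m were also higher in Rag1-Tbet-DKO liver by 0.85 to 1.12 (log2), in the direction of the Ccl12 value and against that of Ccl2. Relative to the array median the Ccl12 value was 0.39, and the call was lost. On HFD without IRI 0 were higher, against 1.30%, and 3 were lower (Ccl2, Ccl7 and Ccl12), against 54.5%, which is close to the share of the array. Relative to the array median the Ccl7 value was -0.79 and its call was lost as well. After IRI on ND 2 were higher (Ccl2 and Ccl7), against 42.5%, and 1 lower (Ccl12), against 8.75%. After IRI on HFD 3 were higher (Ccl2, Ccl7 and Ccl12), against 30.8%, and 0 lower, against 11.5%. The 5 higher calls after IRI were kept under all 8 other settings. Without the HFD Rag1-KO non-IRI pool, which had the lowest median Ct, 2 in place of 5 values were lower. Mean log2 differences over the measured pairs ran from 0.20 ± 0.78 (SD, Cx3cl1, n = 4 pairs) to 0.73 ± 2.68 (Ccl7, n = 4 pairs). Exact two-sided sign-flip permutation p-values ran from 0.25 to 1. For Ccl12 the mean was 0.53 ± 2.64 over n = 3 pairs, which leaves out the ND IRI pair with the well at the limit. With the bound of that pair counted, the Ccl12 mean over 4 pairs is at most -1.49.

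**Figure D5:**
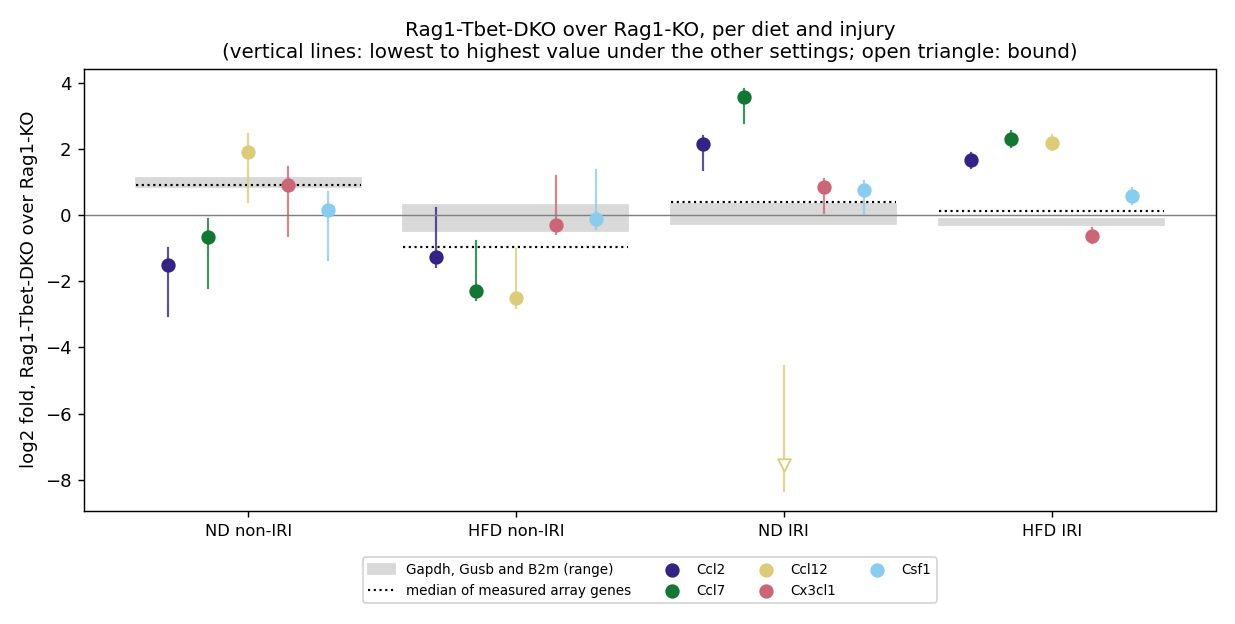
Log2 fold of Rag1-Tbet-DKO over Rag1-KO liver for the 5 genes in each diet and injury state, drawn as in the plot of IRI over non-IRI liver. Ccl2 lies at -1.52 and -1.28 without IRI and at 2.15 and 1.65 after IRI, Ccl7 at -0.67 and -2.28 and then at 3.57 and 2.29, and the open triangle is a bound.

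Other genes of monocyte and macrophage biology on the array were Ccl3, Ccl4, Ccl5, Csf2 and Mif. After IRI, 2 of these 5 were at least 2-fold higher in ND Rag1-KO liver, 1 was higher and 1 lower in HFD Rag1-KO liver, and 3 were higher in each Rag1-Tbet-DKO pair. Beside the 50.7%, 10.4%, 50.0% and 55.8% of array genes that were higher in these pairs, these counts of 5 are not far from the array as a whole. Ccl3 and Ccl4 had their larger folds after IRI in Rag1-Tbet-DKO liver. For Ccl3 the log2 folds were 0.27 (ND) and 0.12 (HFD) in Rag1-KO and 3.35 (ND) and 3.03 (HFD) in Rag1-Tbet-DKO liver, and for Ccl4 they were 1.37, 0.99, 3.21 and 3.26 in the same order. Whether the genotypes differ in this was not tested. Csf2, which encodes GM-CSF, was higher after IRI in all 4 pairs, by 4.76, 3.13, 1.07 and 3.06 on the log2 scale.

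Of the inducers of monocyte chemokines Tnf, Il1a, Il1b, Il6 and Ifng, 1 was at least 2-fold higher after IRI in ND Rag1-KO, 0 in HFD Rag1-KO, 2 in ND Rag1-Tbet-DKO and 3 in HFD Rag1-Tbet-DKO liver, and none was lower. These counts are near or below the same shares of the array. Tnf had log2 folds of 1.36, 0.48, 1.84 and 2.23 in that order. Il1b had -0.93, -0.33, 1.37 and 1.38, below 0 in both Rag1-KO pairs and above 0 in both Rag1-Tbet-DKO pairs. Of the 62 genes, 4.84% had these signs, and the difference was not tested. In ND Rag1-Tbet-DKO liver the Ct of Il1b was 20.93 after IRI and 20.88 without, so the fold of 1.37 came from the references. The -0.33 is smaller than the largest shift of Gapdh, Gusb or B2m in that pair (0.43). Ccl1 and Ccl11, the latter encoding eotaxin, lie in the same cluster. In ND Rag1-Tbet-DKO liver, where Ccl7 was 14.7-fold higher after IRI, Ccl11 had a log2 fold of 0.40 and Ccl1 was at the limit in both pools. In HFD Rag1-Tbet-DKO liver Ccl11 was higher by 2.02 and Ccl1 by at least 4.34 (log2).

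Markers of other cells moved with some of these results and against others. Pf4 and Ppbp, which mark platelets and megakaryocytes, were both at least 2-fold higher after IRI in both Rag1-Tbet-DKO pairs, at log2 folds of 2.39 and 1.05 on ND and 2.64 and 1.97 on HFD, and neither was in the Rag1-KO pairs. Of all array genes, 50.0% (ND) and 55.8% (HFD) were higher in these Rag1-Tbet-DKO pairs. In the Rag1-KO pairs 50.7% (ND) and 10.4% (HFD) were. Between genotypes on ND, Pf4 and Ppbp were higher in Rag1-Tbet-DKO liver without IRI (1.81 and 2.22, log2) and after IRI (3.22 and 2.43). Ccl2 and Ccl7 were lower in that comparison without IRI and higher in that after IRI. Of array genes, 45.6% and 42.5% were higher there. The summed level (log2) of Pf4 and Ppbp ran from -9.63 to -7.54 without IRI and from -8.72 to -5.84 after IRI. Their part in the Ccl2 and Ccl7 values was not tested. The endothelial and stromal genes Bmp2, Bmp4, Bmp6 and Cxcl12 had summed levels from -2.62 to -1.39 without and from -1.86 to -1.46 after IRI. Such a sum follows its most abundant assay. Singly, Bmp2, Bmp4 and Bmp6 were at least 2-fold lower after IRI in ND Rag1-Tbet-DKO liver, by 2.33-fold, 2.00-fold and 2.20-fold, in the pair where Ccl2 and Ccl7 were higher, and their part in that result was not tested. In that pair 11.2% of array genes were at least 2-fold lower. The ILC1 and NK cell products Ifng, Tnfsf10, Fasl, Xcl1 and Ccl5 had summed levels from -8.04 to -5.36 without and from -7.23 to -6.41 after IRI. In Rag1-Tbet-DKO against Rag1-KO liver, 3 of these 5 were at least 2-fold higher on ND without IRI, against 45.6% of array genes. There 1 was lower, against 8.86%. On HFD without IRI 5 were lower, where 54.5% of array genes were lower too. With IRI, HFD livers had 2 of them lower, against 11.5%. ND livers with IRI had Xcl1 higher, against 42.5%, and Fasl lower, against 8.75%.

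Over the 8 pools, the levels most like those of Ccl2 were those of Ccl7 (Pearson's r = 0.93, Spearman's rho = 0.93), Cxcl5 (r = 0.80) and Ccl3 (r = 0.79), among the other 61 of the 62 genes. Those most like Ccl7 were Cxcl5 (r = 0.94), Ccl2 (r = 0.93) and Csf1 (r = 0.92). Ccl12, over 7 pools, was most like Tnf (r = 0.98), Csf1 (r = 0.95) and Ccl4 (r = 0.95). Csf1 was most like Ccl4 (r = 0.98), Cxcl5 (r = 0.97) and Ccl3 (r = 0.95), and Cx3cl1 was most like Csf2 (r = 0.89), Cxcl13 (r = 0.82) and Il4 (r = 0.66). These are descriptions, since levels share their references and their pools, and the HFD Rag1-Tbet-DKO IRI pool is the highest for 4 of the 5 genes. Cx3cl1 and Csf2 both had their highest levels in the ND Rag1-Tbet-DKO pools. Relative to the array median, r was 0.82 between Ccl2 and Ccl7, 0.91 between Ccl7 and Cxcl5 and 0.88 between Ccl12 and Tnf. For Csf1 it was only 0.30 with Ccl7, 0.42 with Ccl4 and 0.00 with Ccl12 (over 7 pools). The genes most like Cx3cl1 were then Bmp6, Mif and Tgfb2.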

How the data were processed

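Liver RNA of 8 conditions was measured on a PCR array (84 cytokine and chemokine genes, 5 housekeeping genes). The authors combined at least 3 livers into each pool, reverse transcribed 1.25 µg of RNA and ran 40 cycles with SYBR Green. Deposited were the Ct of every well and normalized values (a ratio, 2 to the power of -ΔCt). A deposited table of their own folds was not used. The authors' normalized values of Rag1-KO pools matched Actb, Hsp90ab1 and Gapdh within 0.0103 cycles. In Rag1-Tbet-DKO pools they were up to 0.953 cycles away from values against Nodal, Il9 and Csf1, which the methods name, and were compared only within a genotype.

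For this report, ΔCt used the mean of Actb and Hsp90ab1. A Ct of 35 in 1 pool of a comparison gave a bound and in both pools no fold, and calls were made at 2-fold. Array counts cover the genes with a fold or bound. The 3 factors gave 12 comparisons of matched pools, without a replicate. No depth exists beyond the Ct, and the precision of 1 well is unknown. Members and gene lists were chosen with earlier results of these data known. The named genes are the 5 members, the genes of these lists, the housekeeping genes and, for each member, the 3 genes of highest Pearson's r, and counts of 5 or fewer were named after their values were seen. The alternatives were 6 other sets of references, raw Ct values, a Ct limit of 32, a 3-fold threshold, the authors' values, the ND non-IRI baseline, leaving out the member well at the limit and leaving out the pool of lowest median Ct, the last 2 chosen after seeing the data. The files' RefSeq identifiers matched the RefSeq gene table of assembly GRCm38.p6 with the same symbol in 88 of 89 cases. The fold computation was tested on simulated data. Python 3.11.15, numpy 2.4.6, pandas 2.3.3, scipy 1.17.1, statsmodels 0.14.6 and matplotlib 3.10.9 were used.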

Additional observations from a re-analysis of the deposited data

Results flagged for a closer look

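In 5 cases the effect of a factor pointed one way in both comparisons of one group and the opposite way in both comparisons of the other. None of these differences was tested, since each condition has 1 pool. The Rag1-Tbet-DKO over Rag1-KO difference was below 0 without IRI and above 0 after IRI for Ccl7, with means 4.40 apart on the log2 scale, and for Ccl2, with means 3.30 apart. The HFD over ND difference of Ccl2 was below 0 without IRI and above 0 after IRI, with means 2.46 apart. For Cx3cl1 the HFD over ND difference was above 0 in Rag1-KO and below 0 in Rag1-Tbet-DKO liver, the second mean minus the first being -1.33. Its Rag1-Tbet-DKO over Rag1-KO difference was above 0 on ND and below 0 on HFD, with the same value, -1.33, because both are contrasts of the same 8 wells.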

How the results depend on the processing

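The count of member values at least 2-fold higher after IRI, 10 of 20 with Actb and Hsp90ab1, was 5 with Nodal, Il9 and Csf1 as references, 6 with raw Ct values and 6 with the authors' normalized values, and between 7 and 11 under the other alternatives. The counts higher on HFD (7) and higher in Rag1-Tbet-DKO liver (6) stayed between 6 and 8 under all alternatives run. Among the 32 values past 2-fold, the direction turned for Csf1 after IRI in ND Rag1-Tbet-DKO liver (log2 fold -0.29 with Nodal, Il9 and Csf1, -0.36 with raw Ct, -0.22 with the authors' values) and, relative to the array median, for Csf1 after IRI in HFD Rag1-Tbet-DKO liver (-0.23), for Cx3cl1 on HFD in Rag1-Tbet-DKO non-IRI liver (0.08) and for Ccl2 between genotypes in HFD non-IRI liver (0.21). Each such change is the constant that the reference adds. Of the 28 values under 2-fold, 19 took both signs over the settings, 8 of Csf1, 7 of Cx3cl1, 2 of Ccl7 and 1 each of Ccl2 and Ccl12. Ccl7 on HFD in Rag1-KO non-IRI liver ran from -1.05 to 1.23. Of 32 calls, 21 were kept under every alternative reference, limit and set of values. Counts of values at least 2-fold lower ran from 1 to 6 after IRI (2 in the report), from 0 to 4 on HFD (2) and from 2 to 6 in Rag1-Tbet-DKO liver (5). Among them, 1 in place of 2 remained after IRI without the Ccl12 well at the limit, and 2 in place of 5 between genotypes without the HFD Rag1-KO non-IRI pool. Pools were paired by condition only, as in the sign-flip tests, and no fit with a replicate block exists, since each condition has 1 pool. Without repeat wells or pools, the error of a single fold is not known here.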
